A study of Mus musculus with 6 samples.

Results

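Cdh1, which encodes E-cadherin, was examined together with 9 genes of cell-cell adhesion in mouse leukaemia cells that carry a floxed allele of Ptpn6. The 10 genes, of 19938 genes measured, were 4 other cadherins (Cdh2, Cdh3, Cdh5 and Cdh17), 4 catenins (Ctnna1, Ctnnb1, Ctnnd1 and Jup) and Klrg1, which encodes a lymphocyte receptor for E-cadherin. The group was chosen by name around Cdh1, and Cdh1 was selected on its difference between the same 6 arrays, the 4th largest increase of all genes. Values of the 10 genes are therefore given as a description of these arrays. Their p-values are not printed, and a count of those past the threshold, given once beside the same count over all genes, is also a description.

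Cadherins are transmembrane proteins whose outer domains bind cadherins on a neighbouring cell in the presence of calcium. Their cytoplasmic tails bind beta-catenin or plakoglobin, which bind alpha-catenin and through it the actin cytoskeleton, while p120-catenin binds the tail near the membrane and keeps the cadherin at the surface. Beta-catenin that is not held at a junction is degraded by a destruction complex unless a Wnt signal stops it, and it then acts with TCF/LEF factors on transcription. E-cadherin is best known from epithelia and in blood from erythroid precursors and Langerhans cells, while Cdh17 is a cadherin of intestine that mouse B lineage cells also express.

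The cells were pre-B cells of strain 129P2/OlaHsd transformed with BCR-ABL1, the fusion kinase of Philadelphia chromosome-positive acute lymphoblastic leukaemia, and their Ptpn6 genotype was +/fl, 1 floxed and 1 unfloxed allele, in both groups. Ptpn6 encodes the tyrosine phosphatase SHP-1. The 3 ERT2 arrays hold RNA of cells that received PMIP-ERT2, a control vector carrying only an engineered, tamoxifen-responsive oestrogen receptor fragment. The 3 CRE-ERT2 arrays hold RNA of cells that received PMIP-CRE-ERT2, in which that fragment is fused to Cre, so that tamoxifen activates the recombinase. All cells were puromycin resistant and had been given 4OH-Tamoxifen at 0.5 micromolar for 2 days. At most 1 Ptpn6 allele can be removed in this genotype, and the vectors differ by Cre itself. The labels do not say whether the 3 samples of a group were separate cultures, so the spread between them may be technical.

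The values are log2 expression of probe sets, 1 per gene, and the array medians lay between 7.90 and 7.98. Probe sets differ in brightness, so levels of different genes are not ranked against each other. The lower quartile of gene means was 6.96, and whether a value that low lies above background is not known here. Ptpn6 itself was at 11.25, 11.39 and 11.39 in the ERT2 arrays and at 11.36, 11.25 and 11.20 in the CRE-ERT2 arrays. The Ptpn6 values of the groups overlapped (difference -0.07, SE 0.08), and whether its probe set reads the floxed part is not known, so the labels are unchecked at this gene. Of 11 pre-B cell markers, Cd79a (13.6 in the ERT2 arrays), Pax5 (12.6) and Ebf1 (13.7) did not pass in either direction, and were picked as familiar B lineage genes after their values were seen. Dntt, the template-free DNA polymerase of V(D)J joining, rose by 0.48 (limma adjusted p = 0.00369), while the recombinase gene Rag2 fell by 0.53 (0.00426) and the interleukin receptor gene Il7r by 0.43 (0.00349). At an adjusted p under 0.05, 27.3% of the 11 markers passed, beside 4.58% of all genes.

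Cdh1 had the largest difference of the 10 genes, and its groups did not overlap. Its log2 expression was 9.20, 9.04 and 8.99 in the ERT2 arrays and 10.82, 10.71 and 10.63 in the CRE-ERT2 arrays. The lowest CRE-ERT2 array lay 1.43 above the highest ERT2 array, and the arrays of a group stayed within a narrow band. The means were 9.08 ± 0.11 and 10.72 ± 0.10 (SD, n = 3 each), a difference of 1.64 (SE 0.08), or 3.12-fold. In RNA of whole cultures, a rise in all cells and a high level in a part of them cannot be told apart.

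**Figure D1:**
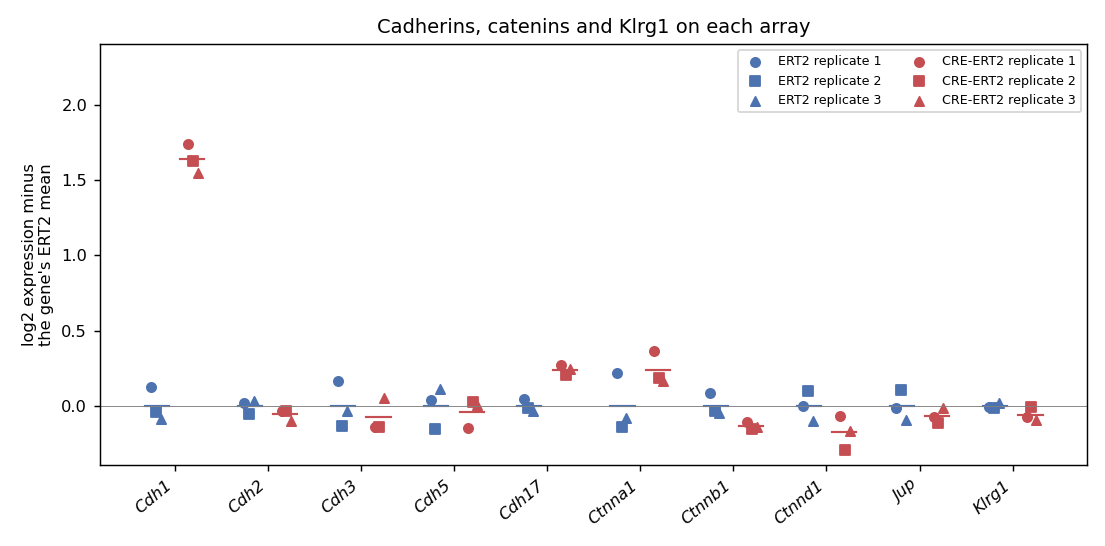
Log2 expression of Cdh1, the other cadherins, the catenins and Klrg1 on each of the 6 arrays, as the distance from the gene's own ERT2 mean. Points are arrays, marker shapes are replicate numbers and short lines are group means of 3 arrays. Cdh1 stands 1.64 above its ERT2 mean in the CRE-ERT2 arrays, and the means of the 9 other genes lie between -0.18 and 0.24.

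Cdh17, the cadherin of intestine and B lineage cells, measured 13.04, 12.98 and 12.95 in the ERT2 arrays against 13.26, 13.19 and 13.23 in the CRE-ERT2 arrays. These groups did not overlap either, but the step between them was small: the difference was 0.24 (SE 0.07), or 1.18-fold, from 12.99 ± 0.04 to 13.23 ± 0.03 (SD, n = 3 each). Cdh17 therefore showed the same sign as Cdh1 at about the size of the larger catenin differences.

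The groups overlapped for the remaining cadherins. Cdh3, which encodes P-cadherin, gave 7.24, 6.94 and 7.05 in the ERT2 arrays and 6.94, 6.94 and 7.13 in the CRE-ERT2 arrays. Its difference was -0.08 (SE 0.09), and it turned to 0.01 without ERT2 replicate 1, the array with the highest Cdh3 value. Cdh5, the VE-cadherin of endothelium, gave 7.53, 7.34 and 7.60 against 7.34, 7.51 and 7.50. Its difference of -0.04 (SE 0.09) also changed sign, to 0.02, without ERT2 replicate 3 and without CRE-ERT2 replicate 1. Cdh2, the N-cadherin of nerve and mesenchyme, stayed between 6.47 and 6.61 on all 6 arrays, with a difference of -0.06 (SE 0.07).

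The catenin differences were small and not of one sign. Ctnna1, which encodes the alpha-catenin that links junctions to actin, gave 10.53, 10.17 and 10.23 in the ERT2 arrays and 10.67, 10.49 and 10.47 in the CRE-ERT2 arrays. Its groups overlapped through ERT2 replicate 1 alone. The difference was 0.24 (SE 0.10), and it was 0.35 without that array and 0.17 without ERT2 replicate 2.

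Ctnnb1, the beta-catenin gene, gave 13.27, 13.15 and 13.14 against 13.08, 13.04 and 13.05. All 3 CRE-ERT2 arrays lay below the ERT2 arrays, by 0.06 at the closest, and the difference was -0.13 (SE 0.07), or a ratio of 0.911. Ctnnd1, which encodes p120-catenin, gave 8.85, 8.95 and 8.75 against 8.79, 8.56 and 8.68. The Ctnnd1 groups overlapped and differed by -0.18 (SE 0.08), a ratio of 0.886. Jup, whose product plakoglobin can take the place of beta-catenin on a cadherin tail, gave 8.15, 8.27 and 8.07 against 8.09, 8.05 and 8.15, with a difference of -0.07 (SE 0.08). The Jup difference was -0.01 without ERT2 replicate 2, which held its highest value, and -0.11 without ERT2 replicate 3. That of Ctnnd1 was -0.12 without CRE-ERT2 replicate 2.

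Klrg1, the inhibitory receptor of natural killer and T cells that binds E-cadherin, stayed between 6.02 and 6.13. Its difference was -0.06 (SE 0.07).

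Set against all genes, 1 of the 10 genes (Cdh1) passed in the direction of higher expression and 0 passed lower, at an adjusted p under 0.05 in the limma fit over all genes. That fit called 4.58% of the 19938 genes, with 2.30% of all genes called higher and 2.28% lower. The split of those calls was 459 higher and 455 lower. It was 543 and 349 after a further quantile normalization and 523 and 399 after median centring, but 540 and 720 with the dimmest genes left out, 587 and 957 with a trended and robust variance and 467 and 566 with array weights. Every CRE-ERT2 array lay above every ERT2 array for Cdh1 and Cdh17, as for 6.92% of all genes, and below for Ctnnb1, as for 15.5% of all genes. The median difference of the 10 genes was -0.06, beside -0.03 for all genes. Since Cdh1 was selected on this contrast, nothing is read from these counts. Under 3 alternatives the count was 2, with Cdh17 added: after a further quantile normalization, after the dimmest genes were left out and with a trended, robust variance.

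**Figure D2:**
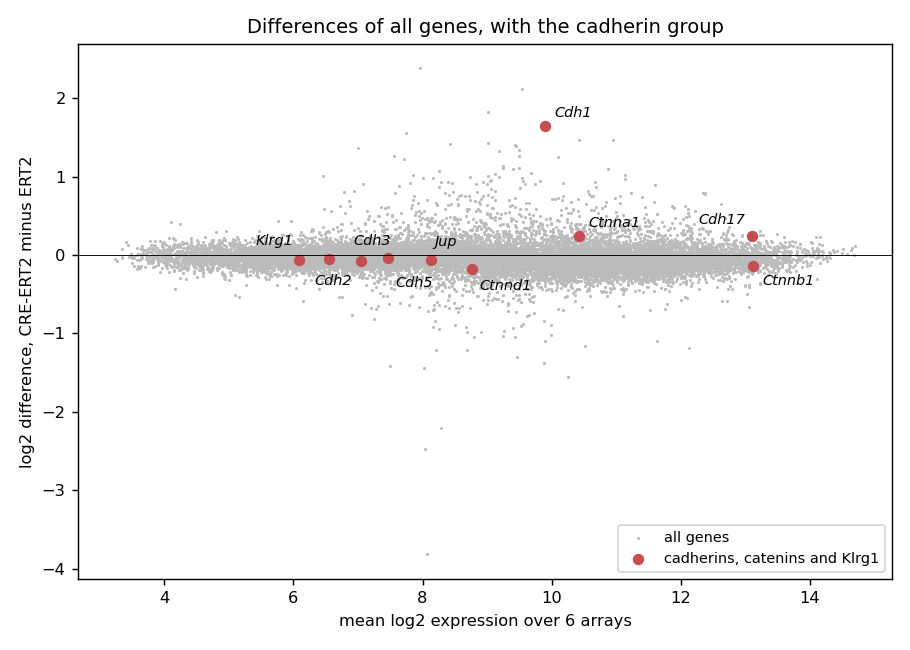
Log2 difference (CRE-ERT2 minus ERT2, vertical) against mean log2 expression over the 6 arrays (horizontal) for the 19938 genes in grey, with the 10 genes in red. Cdh1 lies at 1.64, and only 3 genes lie higher. The other 9 genes lie within the grey band, between -0.18 and 0.24.

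None of the 6 measured genes nearest to Cdh1 in the genome passed the test. As 4.58% of all genes passed, nothing is read from so small a count. Cdh3 is the nearest measured gene on one side of Cdh1 in the RefSeq annotation of GRCm38.p6, and Tango6, whose product acts in transport to the Golgi, is the nearest on the other. Of the 6 nearest measured genes, 3 on each side, 0 passed with limma, and only Tango6 had an unadjusted p under 0.05. Tango6 gave 9.85, 9.74 and 9.66 in the ERT2 arrays and 9.56, 9.54 and 9.40 in the CRE-ERT2 arrays. The Tango6 groups did not overlap, with the CRE-ERT2 arrays lower, as for 15.5% of all genes. Its difference of -0.25 (SE 0.08, adjusted p = 0.105) ran opposite to that of Cdh1. The 5 others (Smpd3, Zfp90, Cdh3, Has3 and Chtf8) differed by -0.09 to 0.00. These genes were picked by position after the values of Cdh1 were known.

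**Figure D3:**
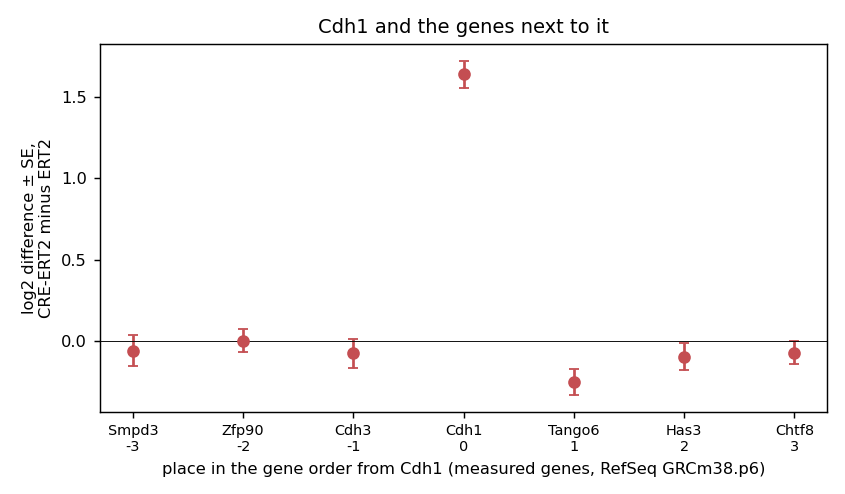
Log2 difference with its standard error (CRE-ERT2 minus ERT2, 3 arrays each) for Cdh1 and the 3 nearest measured genes on each side, in gene order. Cdh1 stands at 1.64, and the neighbours lie between -0.25 (Tango6) and 0.00 (Zfp90).

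The wider cadherin superfamily held 1 more changed gene. Of 50 other superfamily members measured (classical cadherins, protocadherins, desmosomal cadherins, FAT and CELSR genes), Cdhr2 rose and 0 fell, and the list's median difference was -0.03, like that of all genes. That is 2% of the list, beside 4.58% of all genes called in either direction. Cdhr2, a cadherin that links the microvilli of the intestinal brush border, gave 10.63, 10.71 and 10.54 in the ERT2 arrays and 11.70, 11.60 and 11.65 in the CRE-ERT2 arrays. Its groups were far apart, with a rise of 1.02 (SE 0.07), or 2.03-fold (limma adjusted p = 5.23e-06). The next gene by p was Pcdh11x, a protocadherin (-0.16, adjusted p = 0.247).

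Without Cdhr2, the other 49 differed by -0.16 to 0.17, and 1 of them had an unadjusted p under 0.05. Counts at an unadjusted p under 0.05, here and below, have no share over all genes beside them. The 4.58% of all genes is at an adjusted p under 0.05, so nothing is read from the unadjusted counts. Among 22 genes named Cdh with a number other than Cdh1, differences ran from -0.15 (Cdh9) to 0.24 (Cdh17). The 10 desmosome genes measured (Dsc2, Dsc3, Dsg2, Dsg3, Dsg4, Dsp and Pkp1 to Pkp4) lay between -0.16 and 0.17, and 0 of them passed with limma, also at an unadjusted p under 0.05. As 4.58% of all genes passed at the adjusted threshold, nothing is read from 0 of 10. The desmosome genes and those named Cdh with a number were grouped after their values were seen.

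Among genes whose products join catenins to actin or are related to catenins, a few passed in each direction. Of 30 measured, 2 rose and 2 fell, and the median difference was 0.02. The share called was 13.3%, beside 4.58% of all genes. The 26 others did not pass. Actn1, an alpha-actinin that cross-links actin and binds alpha-catenin, rose by 0.74 (SE 0.08, 1.66-fold, limma adjusted p = 0.000103). Its arrays read 11.17, 10.97 and 10.96 against 11.80, 11.79 and 11.72. The groups did not overlap, with the CRE-ERT2 arrays higher, as for 6.92% of all genes.

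Ctnnd2, a neuronal relative of p120-catenin, rose by 0.34 (SE 0.07, adjusted p = 0.0163), from 8.05, 8.15 and 8.19 to 8.49, 8.51 and 8.43. Ctnnal1, the alpha-catenin relative alpha-catulin, fell by 0.43 (SE 0.11, adjusted p = 0.0366), from 10.10, 9.71 and 9.68 to 9.51, 9.35 and 9.34. Zyx, the actin-associated protein zyxin, fell by 0.28 (SE 0.07, adjusted p = 0.0396), from 8.91, 8.93 and 9.01 to 8.66, 8.62 and 8.71. The call of Actn1 held in all 14 alternatives, and those of Ctnnd2, Ctnnal1 and Zyx did not.

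Ctnnd2 lost its call without ERT2 replicate 1 (adjusted p = 0.0657), without CRE-ERT2 replicate 1 (0.0597), 2 (0.0774) or 3 (0.0559). Ctnnal1 lost it without ERT2 replicate 1 (0.108), which held its highest value, and without CRE-ERT2 replicate 1 (0.0581), 2 (0.103) or 3 (0.183). Zyx lost it whichever array was left out, with adjusted p from 0.0710 (ERT2 replicate 1) to 0.173 (CRE-ERT2 replicate 2), and after median centring (0.0616). The vinculin gene Vcl (0.03) and the junction gene Afdn (0.07) are 2 of the 26 that did not pass, named after their values were seen.

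**Figure D4:**
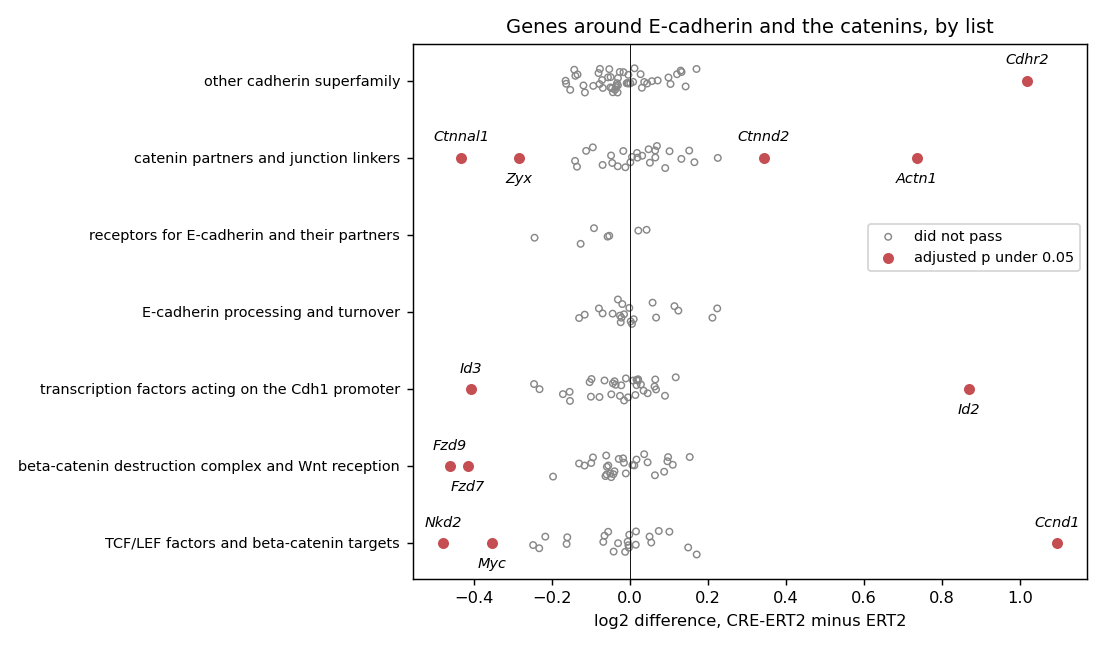
Log2 difference (CRE-ERT2 minus ERT2, horizontal) of each gene in the 7 lists around E-cadherin and the catenins, with genes at a limma adjusted p under 0.05 filled and named. Vertical scatter within a list has no meaning. The filled genes number 12, and the largest are Ccnd1 (1.09) and Cdhr2 (1.02).

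Receptors for E-cadherin and the enzymes that process it showed no change that passed. Of 7 genes for receptors of E-cadherin and their partners, 0 passed with limma and 1 had an unadjusted p under 0.05. That gene was Itgb1, the beta-1 integrin (-0.24, adjusted p = 0.150, but 0.0462 without ERT2 replicate 3), followed by the collagen-binding integrin gene Itga2 (-0.13, 0.558). Itgae, which encodes the alpha-E integrin that binds E-cadherin, differed by -0.09 and its partner Itgb7 by 0.04, both named after their values were seen. Of 21 processing and turnover genes, 0 passed and 2 had an unadjusted p under 0.05, the metalloprotease gene Adam15 (0.22, adjusted p = 0.150) and Exoc3, an exocyst subunit gene (0.21, 0.156). Adam10, the main protease that sheds E-cadherin, differed by 0.00 (SE 0.08) and was likewise picked afterwards. The medians of these lists were -0.06 and -0.01, and 4.58% of all genes passed.

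Among 35 transcription factors and cofactors that act on the Cdh1 promoter in epithelial cells or on such factors, only Id2 rose and only Id3 fell. The other 33 did not pass, and the list's median difference was -0.01. The 5.71% called lies near the 4.58% called of all genes. Id2, a helix-loop-helix protein without a DNA-binding region that holds E proteins off DNA, gave 10.28, 10.33 and 10.17 in the ERT2 arrays and 11.30, 11.01 and 11.07 in the CRE-ERT2 arrays. It rose by 0.87 (SE 0.09, 1.83-fold, limma adjusted p = 6.59e-05), and its groups were well apart. Id3, of the same family, fell by 0.41 (SE 0.10, adjusted p = 0.0401), from 9.77, 10.17 and 10.10 to 9.71, 9.56 and 9.54.

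Id3 lost its call without ERT2 replicate 2 (adjusted p = 0.0971) or 3 (0.0792), without CRE-ERT2 replicate 1 (0.0620), 2 (0.110) or 3 (0.196), and after a further quantile normalization (0.0723). The 7 Snail, Zeb and Twist genes, which repress Cdh1 in epithelial cells, differed by -0.15 to 0.07, and 0 of them passed with limma, also at an unadjusted p under 0.05. Zeb2 gave the lowest of these differences, with 10.94, 10.79 and 10.78 against 10.70, 10.57 and 10.78. The E protein genes Tcf3 (-0.06), Tcf4 (-0.17) and Tcf12 (0.09), whose products bind E-boxes and are required in B cell development, did not pass. Of these 3, Tcf4 had an unadjusted p under 0.05 (limma adjusted p = 0.269). It gave 11.73, 11.91 and 11.81 in the ERT2 arrays and 11.68, 11.61 and 11.65 in the CRE-ERT2 arrays. The Tcf4 groups did not overlap, with the CRE-ERT2 arrays lower, as for 15.5% of all genes. The Snail, Zeb, Twist and E protein genes were set out as subgroups after their values were seen. As 4.58% of all genes passed, nothing is read from counts in such small subgroups.

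Genes of Wnt reception and the beta-catenin destruction complex were lower at 2 of 31 members. Fzd9 and Fzd7, both Wnt receptors, fell by 0.46 (SE 0.07, limma adjusted p = 0.00251) and 0.42 (SE 0.08, adjusted p = 0.00772). Fzd9 gave 8.92, 8.85 and 8.97 in the ERT2 arrays and 8.45, 8.52 and 8.38 in the CRE-ERT2 arrays. Fzd7 gave 9.01, 9.22 and 9.07 against 8.74, 8.65 and 8.65, and its call was lost without CRE-ERT2 replicate 3 (adjusted p = 0.0567). The 8 other frizzled genes lay between -0.12 and 0.10, 0 passed with limma, and 0 had an unadjusted p under 0.05. They were grouped after the values were seen, by leaving out the 2 that passed, so that 0 passed follows from the choice. The list's median difference was -0.04, and 6.45% of the list was called, beside 4.58% of all genes.

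Of 26 TCF/LEF factors, their cofactors and beta-catenin targets, Ccnd1 rose while Nkd2 and Myc fell, and the median difference was -0.01. These calls make 11.5% of the list, beside 4.58% of all genes. Ccnd1, the cyclin D1 gene, gave 10.37, 10.34 and 10.29 against 11.47, 11.41 and 11.40, a rise of 1.09 (SE 0.07, 2.14-fold, limma adjusted p = 1.56e-06). Nkd2, whose product binds Dishevelled and restrains Wnt signals, fell by 0.48 (SE 0.07, adjusted p = 0.00182), from 9.36, 9.21 and 9.26 to 8.81, 8.76 and 8.82. Myc, a growth regulator, gave 13.50, 13.43 and 13.28 against 13.15, 13.07 and 12.95. It fell by 0.35 (SE 0.08, adjusted p = 0.0304), and lost its call without ERT2 replicate 1 (0.129) or 2 (0.0605) and without CRE-ERT2 replicate 2 (0.0796) or 3 (0.176). The Wnt feedback genes Axin2, Lef1, Nkd1, Rnf43, Znrf3, Notum, Sp5 and Lgr5, grouped after their values were seen, differed by -0.16 to 0.05. Of these 8, 0 passed with limma and 1 had an unadjusted p under 0.05.

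Across the 7 lists, 12 of 200 genes (6%) passed, 5 higher and 7 lower, beside 4.58% of all genes, and their median difference was -0.02 beside -0.03. The count was 7 without CRE-ERT2 replicate 2 and 6 without CRE-ERT2 replicate 3.

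**Figure D5:**
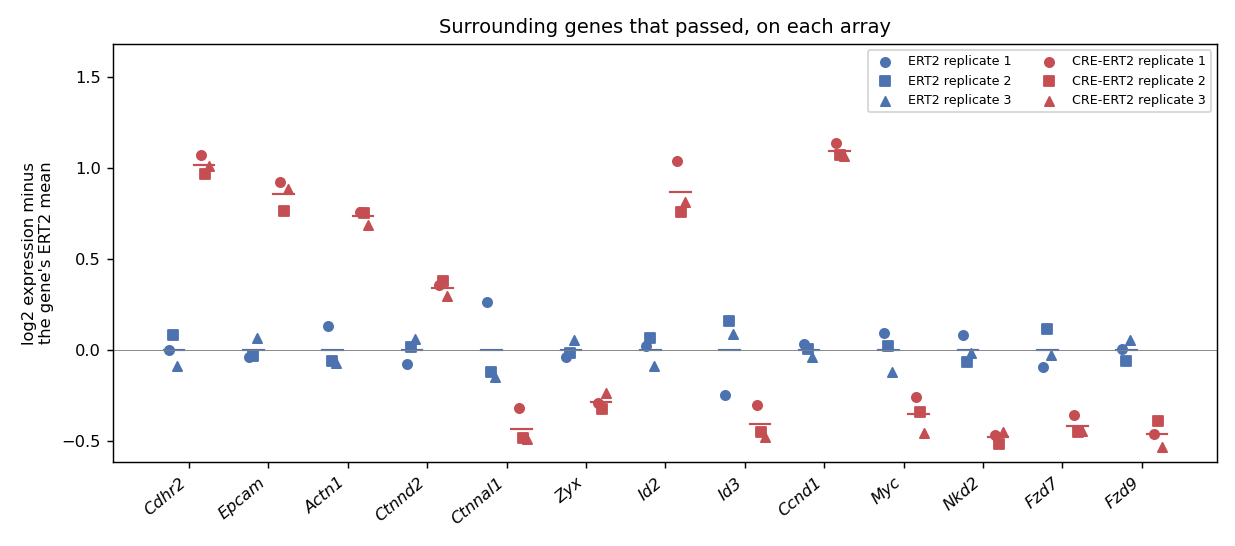
Log2 expression on each array, as the distance from the gene's ERT2 mean, for the 12 genes of the lists that passed with limma and for Epcam. Points are arrays and short lines are group means of 3 arrays. The groups do not overlap for any of the 13 genes, which are shown because they passed on these same arrays. The gaps are widest for Cdhr2, Ccnd1, Epcam and Id2.

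Epcam, which encodes an adhesion molecule of epithelia, rose in the CRE-ERT2 arrays, where Cdh1 was also higher. It gave 9.04, 9.05 and 9.15 in the ERT2 arrays and 10.01, 9.85 and 9.97 in the CRE-ERT2 arrays, a rise of 0.86 (SE 0.08, 1.81-fold, limma adjusted p = 2.15e-05). Of the 9 epithelial markers measured, Epcam rose and 8 did not pass. That is 11.1% of a short list, beside 4.58% of all genes. The 8 others (Krt5, Krt8, Krt14, Krt18, Krt19, Cldn3, Cldn4 and Cldn7) differed by -0.11 to 0.15, with the keratin gene Krt18 highest (adjusted p = 0.453). The sum of the 9 log2 values was 70.8 to 72.2 in the ERT2 arrays and 71.3 to 73.3 in the CRE-ERT2 arrays. For the 8 without Epcam it was 61.8 to 63.0 against 61.3 to 63.4. Array values hold no zero, so no marker can be called absent.

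Among the markers of other cell types, 2 more genes rose. Each is 1 of 5 genes of its list (20%), beside 4.58% of all genes called. Among 5 dendritic or Langerhans cell markers, Flt3, a growth factor receptor gene of early lymphoid and dendritic cells, rose by 0.53 (limma adjusted p = 0.00115), while Itgax (-0.10, 0.644), Cd207, Zbtb46 and Batf3 did not pass. The 5 log2 values summed to 37.5 to 38.4 in the ERT2 arrays and 38.3 to 38.5 in the CRE-ERT2 arrays. Among 5 endothelial markers, Pecam1, an adhesion molecule of endothelium and leukocytes, rose by 0.40 (adjusted p = 0.00962), and Tek (0.12, 0.606) and the others did not pass. Pecam1 lost its call without CRE-ERT2 replicate 1 (0.0509) or 3 (0.0526). The endothelial sums were 37.3 to 38.1 and 37.6 to 38.4.

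With limma, 0 of 5 erythroid markers (led by Klf1, 0.07, and Slc4a1, -0.07), 0 of 7 T or NK cell markers (Klrb1c, -0.17, and Cd3d, -0.16), 0 of 7 stromal markers (Col1a2, -0.05, and Vcam1, -0.05) and 0 of 6 myeloid markers (Lyz2, -0.22, and Itgam, 0.13) passed. At that adjusted threshold 4.58% of all genes passed. At an unadjusted p under 0.05, for which no share of all genes is given, only Lyz2 of these 4 lists was counted. The summed log2 values in the ERT2 and CRE-ERT2 arrays were 37.5 to 38.2 and 37.4 to 38.4 for erythroid markers. They were 53.4 to 55.0 and 53.9 to 55.1 for stromal, and 44.1 to 44.6 and 44.0 to 44.7 for myeloid markers. For T or NK markers the sums did not overlap, at 44.83 to 45.41 in the ERT2 arrays and 44.26 to 44.76 in the CRE-ERT2 arrays. The median difference of the T or NK list was -0.12. The part of other cell types in the difference of Cdh1 was not tested, since these counts and sums do not measure shares of cells.

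The gene whose 6 array values, centred on its own mean, lay closest to those of Cdh1 was Ctla4, the gene of a T cell checkpoint receptor, at a root mean square distance of 0.13 on the log2 scale. Ahrr, the aryl hydrocarbon receptor repressor gene (0.13), Cd74, which encodes the class II invariant chain (0.15), the carboxypeptidase gene Cpe (0.15), the surface antigen gene Ly6f (0.16) and Csf1, the macrophage colony-stimulating factor gene (0.17), came next. All 6 share the high CRE-ERT2 level by which they were found, so the distance describes these 6 arrays only. None of them is a cadherin or a catenin.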

How the data were processed

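Biotin-labelled total RNA of 6 samples was measured on Affymetrix arrays, as the labels' protocols state. The authors deposited a table of log2 expression, 1 value for each probe set on each array. The submitters' processing notes name RMA and Partek 6.5 without role or order, and the log2 scale was read from the range of the values. Signal over background, scan dates and coordinates were not used here.

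Of 35556 probe sets, the platform annotation lists 1 gene for 21789, several for 1621 and none for 12146. Each gene is represented by its brightest single-gene probe set (mean of 6 arrays), giving 19938 genes. Each of the 10 genes has 1 such probe set and shares none with another gene. No array was dropped or normalized again.

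CRE-ERT2 and ERT2 arrays were compared with limma 3.58.1 (R 4.3.3), using lmFit and eBayes with group as the only term, two-sided, with Benjamini-Hochberg adjustment over all genes and a threshold of 0.05. The fit was tested on simulated data. The 10 genes, the 7 lists around them (206 names, 200 measured) and the 8 marker lists were chosen with earlier results of these data known. In each list up to 6 passing genes with the largest change are named, and where fewer than 2 passed, those with the smallest p were added as values. Names outside this rule are marked in the text, other than members listed to define a group. The alternatives were the replicate number as a block, a further quantile normalization, median centring, leaving out the dimmest genes (mean under 7.37), averaging probe sets by gene, a test of every probe set, a variance that was trended and robust, array weights and leaving out each array.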

Additional observations from a re-analysis of the deposited data

How the results depend on the processing

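The difference of Cdh1 stayed between 1.59 and 1.70 over 14 alternatives. Of all genes, 914 passed as deposited, 298 probe sets passed when all were tested, 1544 genes with a trended and robust variance and 589 with the replicate number as a block (replicate block). Same-numbered arrays of the groups did not deviate together (correlations over genes -0.11, -0.37 and -0.07). The labels do not say what the numbers stand for, and so few correlations cannot decide whether they pair the samples. Over all probe sets, ERT2 replicate 2 correlated more with CRE-ERT2 replicate 1 (0.9951) than with ERT2 replicates 1 (0.9943) and 3 (0.9922). ERT2 replicate 3 correlated more with CRE-ERT2 replicate 2 (0.9949) than with ERT2 replicates 1 (0.9938) and 2 (0.9922). The other arrays correlated most within their own group. Whether a batch joins arrays across the groups was not tested. With the block, Ctnnd2 (adjusted p = 0.0604), Zyx (0.110) and Id3 (0.0838) did not pass. Leaving out 1 array gave 453 to 979 genes. Of the list genes around the cadherins, 12 passed, 6 when all probe sets were tested, and 6 to 13 over all alternatives, or 6 to 11 with 1 array left out. Testing all probe sets also ended the calls of Ctnnal1, Ctnnd2, Zyx, Id3, Fzd7, Myc, Pecam1, Dntt and Rag2, and a further quantile normalization that of Ctnnal1 (adjusted p = 0.0522). The calls of Cdhr2, Actn1, Id2, Ccnd1, Nkd2, Fzd9, Epcam, Flt3 and Il7r held in all 14. Cdh2, Cdh3 and Klrg1 lie among the dimmest genes and have no value where those were left out. With 3 arrays a group, a small change could be missed in a bright or a dim gene. No detection calls were used for the dim ones. No group of 3 was tested for outlying arrays.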
